A study of Mus musculus with 21 samples.

Results

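The genes described here are *Cish*, *Socs1*, *Socs2*, *Socs3*, *Pim1* and *Pim2*, which encode the cytokine-inducible protein CIS, suppressors of cytokine signalling (SOCS) and PIM kinases. They were taken by gene symbol from an expression table of mouse CD8+ T cells, are 6 of the 19505 genes measured, and each was read by 1 transcript cluster, the set of array probes that report a gene. The related genes *Socs4*, *Socs5*, *Socs6*, *Socs7* and *Pim3*, served as a comparison, so that all 11 listed family genes were measured.

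T cells from spleens of wildtype mice were activated with CD3/CD28 beads and kept for 48 h in 1 of 3 media, with 7 arrays per medium. Fresh medium was complete RPMI with 2-ME. AML-conditioned medium was the filtered supernatant of WEHI-3B, a single mouse myelomonocytic leukaemia line that stands for acute myeloid leukaemia (AML), and DC-conditioned medium was that of dendritic cells (DC) grown from bone marrow. All groups shared genotype, bead activation and culture time, RNA came from CD8+ cells purified a second time by magnetic separation, and 1 description field of the labels, against all others, names a reticular cell. The labels call the samples biological replicates without saying which came from separate mice, so p-values measure the spread between these samples.

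Cytokines of the interleukin-2 family bind receptors whose JAK kinases phosphorylate STAT5, and STAT5 then enters the nucleus and binds paired TTC and GAA sequences. Among the genes it switches on are inhibitors of the same receptors: CIS and the SOCS proteins hold an SH2 domain, which binds phosphotyrosine, and a SOCS box, which recruits a ubiquitin ligase. PIM kinases, which need no activation by phosphorylation and so follow the amount of their mRNA and protein, favour survival and growth of activated T cells.

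Levels are log2 expression values, and a difference of 1 on this scale is a 2-fold change. The T cell markers *Cd3e* (11.58 to 11.99 over the 21 arrays), *Cd8a* (11.62 to 11.88) and *Cd8b1* (11.54 to 11.83) were high in every medium, and none of the 8 measured CD8 T cell markers differed between media. *Cxcl12*, the gene that names the reticular cell of the label, lay between 5.18 and 5.71, and none of the 5 measured reticular markers differed either. In earlier results of these data AML replicates 4 and 5 lay apart from the rest, and replicates 1 to 3 differed as a set from replicates 4 to 7. For the 6 genes, results are therefore also given without those arrays or within those sets where that changed a call.

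The promoters of *Cish*, *Socs1* and *Socs3* are printed because they show the STAT5-type motif present in 2 copies, absent and present in 1 copy, for inhibitors whose levels are compared below. Each window runs from 250 bases before to 50 bases after a RefSeq transcript start in build GRCm38.p6 and is written 5′ to 3′ along the gene's strand, with TTCNNNGAA in capitals. The *Cish* window is chr9:107296409-107296708 on the plus strand, the *Socs1* window chr16:10785487-10785786 on the minus strand and the *Socs3* window chr11:117969317-117969616 on the minus strand.
Cish: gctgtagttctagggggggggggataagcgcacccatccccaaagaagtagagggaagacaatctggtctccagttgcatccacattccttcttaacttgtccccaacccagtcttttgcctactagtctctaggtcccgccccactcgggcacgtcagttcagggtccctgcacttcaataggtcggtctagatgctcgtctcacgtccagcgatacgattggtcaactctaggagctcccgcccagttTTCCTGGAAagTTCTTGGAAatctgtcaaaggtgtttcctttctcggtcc
Socs1: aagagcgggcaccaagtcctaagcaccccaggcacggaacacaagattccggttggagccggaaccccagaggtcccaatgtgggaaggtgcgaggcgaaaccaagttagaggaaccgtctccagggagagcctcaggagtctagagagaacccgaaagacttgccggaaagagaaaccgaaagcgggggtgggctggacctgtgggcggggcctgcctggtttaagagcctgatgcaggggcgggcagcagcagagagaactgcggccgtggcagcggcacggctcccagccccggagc
Socs3: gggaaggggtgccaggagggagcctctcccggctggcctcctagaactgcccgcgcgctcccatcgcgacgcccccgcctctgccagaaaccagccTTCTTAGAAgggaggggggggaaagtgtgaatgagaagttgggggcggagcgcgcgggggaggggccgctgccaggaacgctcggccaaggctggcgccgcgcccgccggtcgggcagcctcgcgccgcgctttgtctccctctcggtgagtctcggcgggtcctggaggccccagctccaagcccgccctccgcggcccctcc
In *Cish* the matches TTCCTGGAA and TTCTTGGAA span bases 1 to 9 and 12 to 20, counted from the transcript start as base 1, and in *Socs3* TTCTTAGAA spans bases -154 to -146. The *Socs3* start used by the table lies inside the gene's annotated span. The motif reads the same on both strands, and it was absent from the *Socs1*, *Pim2*, *Socs4* and *Pim3* windows and from both *Pim1* windows. No window was available for the member *Socs2*, and *Socs5*, *Socs6* and *Socs7* were not examined either. Of 32851 mouse promoter windows of this length, 2726 (8.30%) held at least 1 copy and 150 (0.457%) at least 2, as the *Cish* window did. A match is a description of letters and not a measured binding site.

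*Cish* encodes CIS, which docks on phosphorylated cytokine receptors, limits STAT5 signalling and is known to dampen T cell receptor signalling in CD8+ T cells. The gene spans chr9:107296659-107302784. Its log2 level was 5.80 at the lowest, 6.22 at the median and 7.67 at the highest in fresh medium. In DC-conditioned medium the lowest, median and highest arrays were at 5.90, 6.77 and 7.64, and in AML-conditioned medium at 7.27, 8.09 and 9.34. AML replicates 4 (8.85) and 5 (9.34) were the highest of the 21 arrays and AML replicate 6 was the lowest of its group. Of the 7 AML arrays, 6 lay above every fresh-medium array and 6 above every DC array. The array that did not, AML replicate 6, was exceeded by fresh replicate 7 (7.67) and DC replicate 6 (7.64).

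*Cish* rose 3.37-fold after AML-conditioned medium against fresh medium (95% interval 2.16 to 5.25-fold; log2 difference 1.75, SE 0.31, limma adjusted p = 0.00324). Against DC-conditioned medium the rise was 2.85-fold (log2 1.51, SE 0.31, adjusted p = 0.0105). These comparisons share the AML arrays and are not independent of each other. Between DC-conditioned and fresh medium the difference was 0.24 (95% interval -0.40 to 0.88, adjusted p = 0.949). The group means were 6.42 ± 0.69 in fresh, 6.66 ± 0.60 in DC-conditioned and 8.17 ± 0.72 in AML-conditioned medium (SD, n = 7), so fresh and DC-conditioned medium were neighbours that did not differ beyond their spread. In bulk RNA, a change in the RNA of each cell cannot be told apart from a change in the share of cells that hold it.

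The rise of *Cish* over fresh medium was called in 34 of 35 alternative fits, at log2 differences between 1.38 and 1.96. Leaving out any 1 array kept the call, at 1.56 to 1.96. Without AML replicates 4 and 5 it was 1.38 (adjusted p = 0.0317), and the rise over DC-conditioned medium then was 1.14 and lost its call (adjusted p = 0.0937). In replicates 4 to 7 alone the differences of 1.61 from fresh medium (adjusted p = 0.128) and 1.22 from DC-conditioned medium (adjusted p = 0.181) were not called.

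*Socs1* encodes the SOCS protein that binds and inhibits JAK kinases directly and is known as a brake on interferon gamma and interleukin-2 signalling in T cells. The gene spans chr16:10783808-10785536. In fresh medium its log2 level was 8.22 at the lowest, 8.54 at the median and 8.75 at the highest. DC arrays ran from 8.34 through a median of 8.43 to 8.61, and AML arrays from 8.46 through 8.93 to 9.19. Here too 6 of 7 AML arrays lay above every fresh and every DC array, and AML replicate 6 was the exception, inside the range of both other groups.

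*Socs1* rose 1.31-fold over fresh medium (log2 0.39, SE 0.09, 95% interval 0.19 to 0.58, adjusted p = 0.0256) and 1.38-fold over DC-conditioned medium (log2 0.46, SE 0.09, adjusted p = 0.00964). DC-conditioned medium differed from fresh medium by -0.08 (95% interval -0.27 to 0.12, adjusted p = 0.944). The call against fresh medium ended without fresh replicate 3 (0.33, adjusted p = 0.0566), fresh replicate 6 (0.37, 0.0506), AML replicate 2 (0.35, 0.0549) or AML replicate 5 (0.34, 0.0767), and without AML replicates 4 and 5 together (0.34, 0.141). Against DC-conditioned medium it held in 21 of 21 fits that left out 1 array, at 0.42 to 0.54, and ended without AML replicates 4 and 5 (0.42, adjusted p = 0.0603), in replicates 1 to 3 alone (0.49, adjusted p = 0.0836) and in replicates 4 to 7 alone (0.44, adjusted p = 0.140).

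*Socs2* encodes a SOCS protein best known for ending growth hormone signalling and induced by STAT5 in many cells. The gene spans chr10:95383903-95417321. Its log2 level in fresh medium was 7.18 at the lowest, 7.62 at the median and 8.66 at the highest. DC arrays ran from 6.99 through 8.02 to 8.46, and AML arrays from 8.29 through 8.73 to 9.15. AML arrays were above every fresh array in 4 of 7 cases and above every DC array in 5 of 7, and all 7 exceeded the median of each other medium.

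*Socs2* rose 1.90-fold over DC-conditioned medium (log2 0.93, SE 0.25, 95% interval 0.42 to 1.44, adjusted p = 0.0430). Over fresh medium the difference was of like size, 1.84-fold (log2 0.88, SE 0.25, 95% interval 0.37 to 1.39), and missed the threshold (adjusted p = 0.0540). DC-conditioned and fresh medium differed by -0.05 (95% interval -0.56 to 0.46). Both differences sat near the threshold: of 35 alternatives, 13 called the difference from fresh medium and 17 that from DC-conditioned medium. Without 1 array the difference from fresh medium was called when DC replicate 1 or 3, fresh replicate 6 or 7, or AML replicate 6 or 7 was left out (adjusted p = 0.0252 to 0.0484). That from DC-conditioned medium was lost without DC replicate 1, 2, 3 or 7, fresh replicate 2 or 5, or any 1 of AML replicates 1 to 5 (adjusted p up to 0.109). Without AML replicates 4 and 5 together it was 0.84 and also lost its call (adjusted p = 0.235).

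*Socs3* encodes the SOCS protein that binds gp130 and restrains STAT3 signalling by interleukin-6 family cytokines. The gene spans chr11:117966079-117970336. Fresh arrays had log2 levels from 6.27 through a median of 6.73 to 6.94, DC arrays from 6.01 through 6.48 to 6.61, and AML arrays from 6.18 through 6.72 to 7.00. The 3 ranges overlapped, with 1 AML array above every fresh array and 6 above every DC array. The differences were 0.09 from fresh medium (95% interval -0.16 to 0.35, adjusted p = 0.791) and 0.35 from DC-conditioned medium (95% interval 0.09 to 0.61, adjusted p = 0.162). Without AML replicate 6 the latter was 0.44 and was called (adjusted p = 0.0327). DC-conditioned medium differed from fresh medium by -0.25 (95% interval -0.51 to 0.0048, adjusted p = 0.785).

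**Figure D1:**
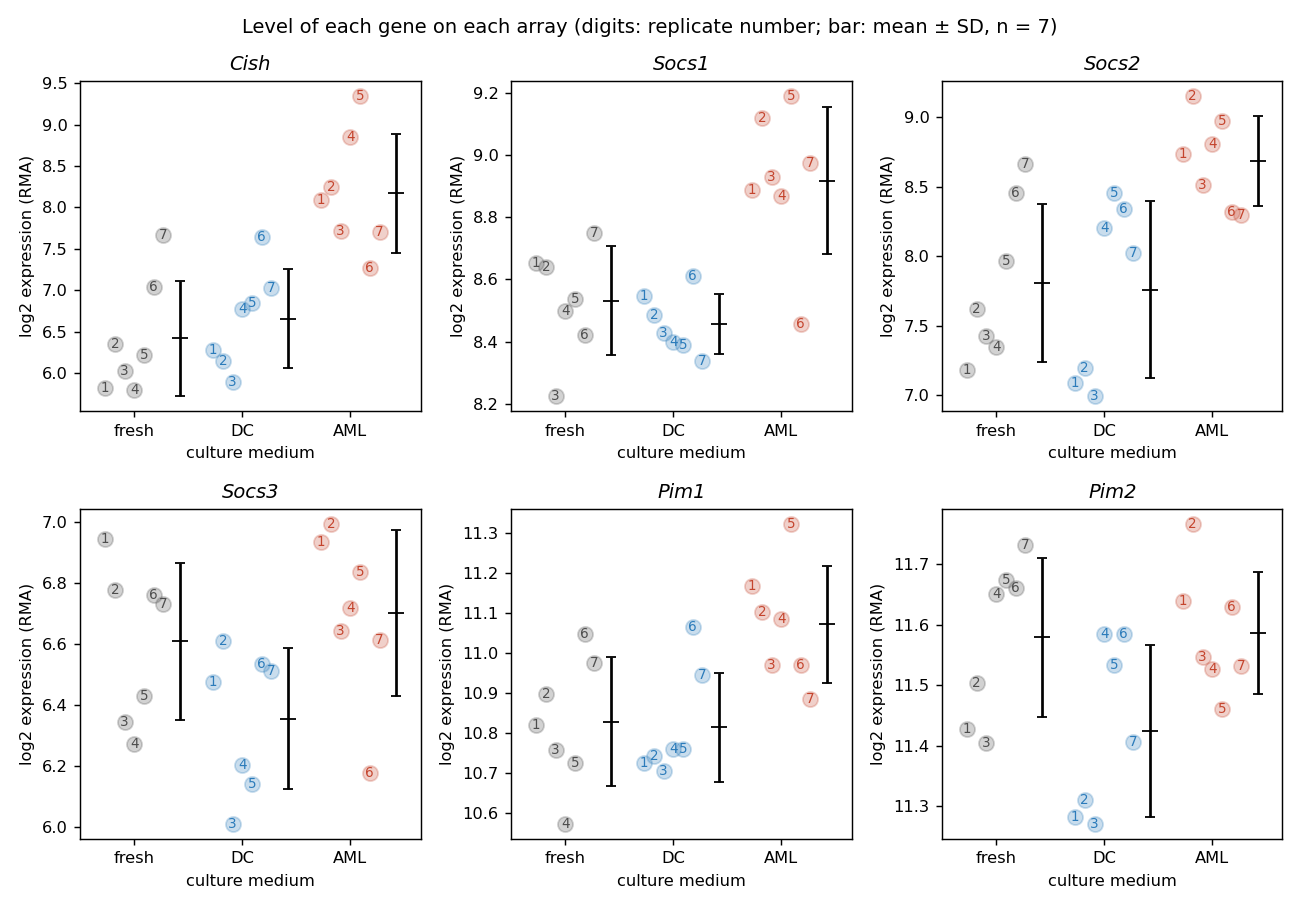
Each panel plots 1 gene on the log2 expression scale (vertical axis) by culture medium (horizontal axis), with a digit for each array's replicate number and a bar for the mean ± SD of 7 arrays. All 6 genes overlap between media. For *Cish* and *Socs1* 6 of 7 AML arrays lie above all arrays of the other media, and for *Socs3* 6 lie above every DC array and 1 above every fresh array. The share of all genes with 6 of 7 arrays above was not counted.

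*Pim1*, on chr17:29490785-29496111, encodes a serine/threonine kinase induced by cytokines that phosphorylates regulators of survival and the cell cycle. Its log2 level ran from 10.57 through a median of 10.82 to 11.05 in fresh medium, from 10.70 through 10.76 to 11.06 in DC-conditioned medium, and from 10.89 through 11.09 to 11.32 in AML-conditioned medium. The ranges overlapped: 4 of 7 AML arrays lay above every fresh array and 4 above every DC array, and all 7 exceeded both medians. The differences were 0.24 from fresh medium (95% interval 0.07 to 0.41, adjusted p = 0.113) and 0.26 from DC-conditioned medium (95% interval 0.09 to 0.43, adjusted p = 0.103). Neither was called in any of 35 alternatives, and DC-conditioned medium differed from fresh by -0.01 (95% interval -0.18 to 0.16).

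*Pim2*, on chrX:7878306-7883432, encodes the PIM kinase known to sustain growth and survival of T cells in parallel to the mTOR pathway. Fresh arrays had log2 levels from 11.40 through a median of 11.65 to 11.73. DC arrays ran from 11.27 through 11.41 to 11.58 and AML arrays from 11.46 through 11.55 to 11.77. The means of fresh and AML-conditioned medium, 11.58 ± 0.13 and 11.59 ± 0.10 (SD, n = 7), differed by 0.0068 (95% interval -0.15 to 0.16, adjusted p = 0.981). The AML arrays differed from the DC arrays by 0.16 (95% interval 0.0089 to 0.31, adjusted p = 0.308), and the DC from the fresh arrays by -0.15 (95% interval -0.31 to -0.0021, adjusted p = 0.775).

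Against fresh medium, 2 of the 6 genes were called after AML-conditioned medium, both higher, where 2.77% of all genes were called in either direction and 1.3% as higher. Against DC-conditioned medium it was 3 of 6, all higher, where 2.39% of all genes were called and 1.13% as higher. Of all calls against fresh medium 46.8% were higher, and 59.5% when each array was centred on its median, which left the calls of *Cish* and *Socs1* in place. After DC-conditioned against fresh medium limma called 0 of 6 and 0% of all 19505 genes. An unadjusted p under 0.05 was reached there by 1 of the 6, *Pim2*, and by 1251 of all genes, and array weights called 2. After AML-conditioned medium 4 of the 6 reached it against fresh medium, beside 3100 of all genes. Against DC-conditioned medium 6 of 6 did, beside 2782 of all genes. The median difference of the 6 genes was 0.32 from fresh and 0.40 from DC-conditioned medium, beside medians of -0.01 and 0.01 over all genes. None of the 6 had every AML array above every array of the other medium, which 0.354% of all genes had against fresh and 0.436% against DC-conditioned medium. Without AML replicates 4 and 5 the calls were 1 of 6 against fresh and 0 of 6 against DC-conditioned medium. Against fresh medium only *Cish* was also called when fresh replicate 3, AML replicate 2 or AML replicate 5 was left out.

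**Figure D2:**
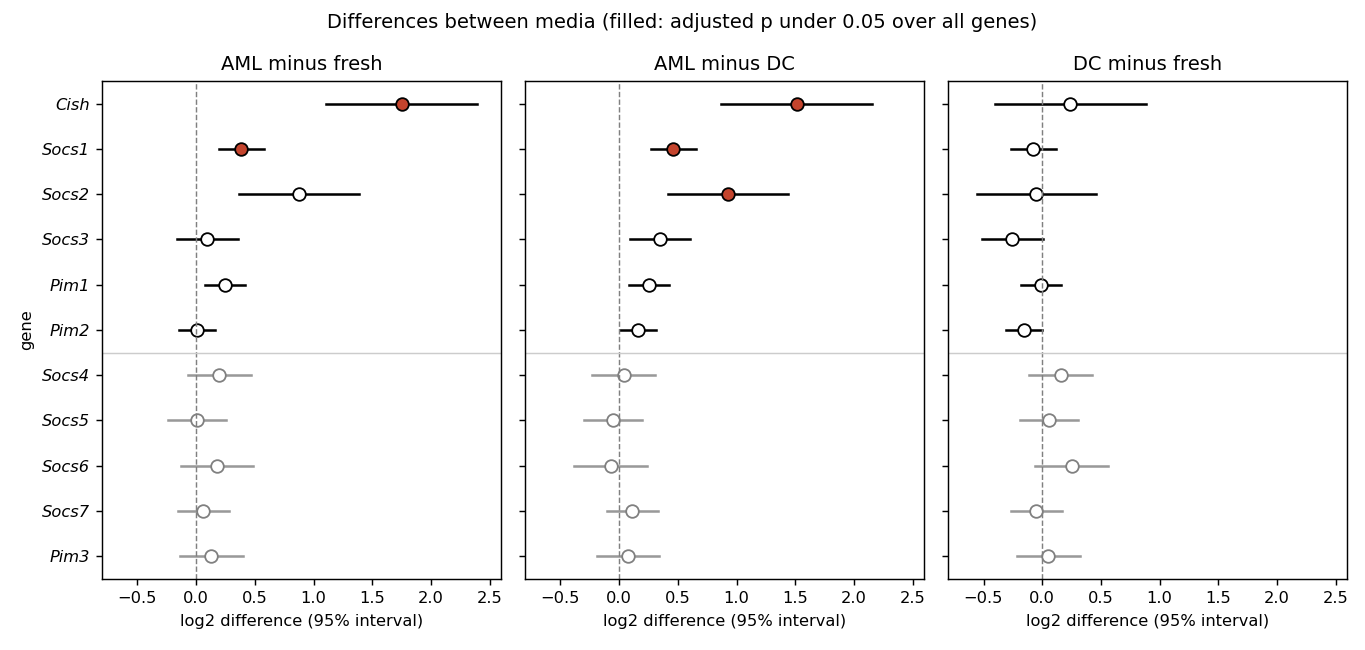
Points show the log2 difference between media (horizontal axis) with its 95% interval for each gene (vertical axis) in 3 comparisons, filled where the adjusted p over all genes was under 0.05. *Cish* has the values 1.75, 1.51 and 0.24 in AML minus fresh, AML minus DC and DC minus fresh, and the 5 genes under the line are the other SOCS and PIM genes, none of them filled.

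**Figure D3:**
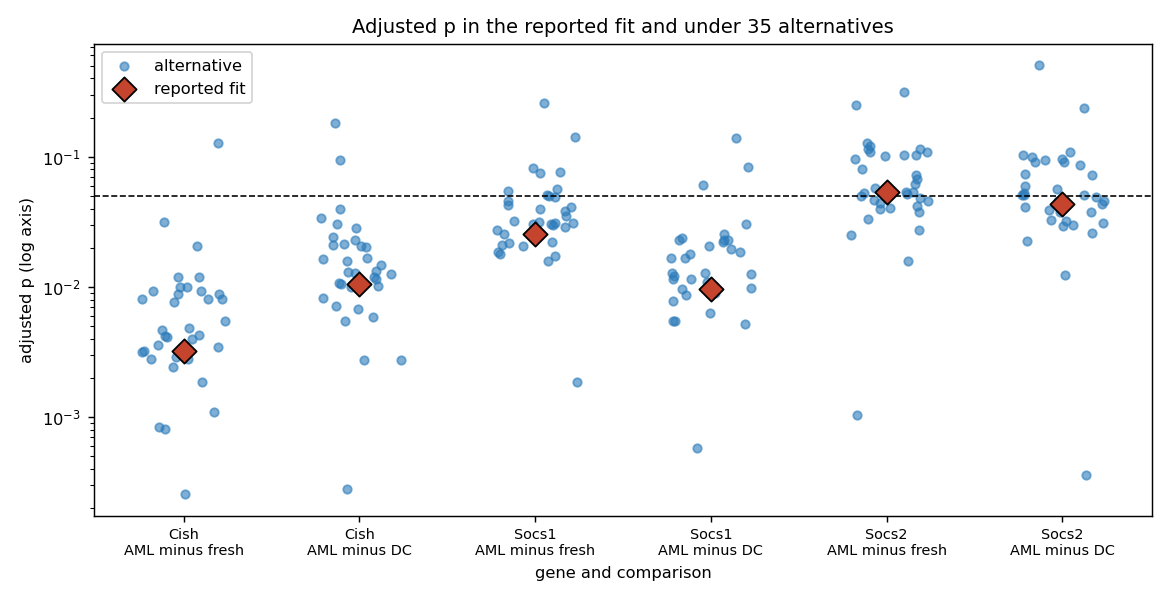
The adjusted p (vertical log axis) of *Cish*, *Socs1* and *Socs2* in AML minus fresh and AML minus DC (horizontal axis) is shown for the reported fit (diamond) and 35 alternatives (points), with a dashed line at 0.05. *Cish* stays under the line in 34 and 33 of them, *Socs1* in 27 and 32, and *Socs2* in 13 and 17.

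The other family genes did not pass in any comparison. *Socs4* had mean log2 levels of 7.13 in fresh, 7.29 in DC-conditioned and 7.33 in AML-conditioned medium, and AML differed from fresh by 0.20 (adjusted p = 0.50). The differences from fresh medium after AML-conditioned medium were 0.0072 for *Socs5*, 0.18 for *Socs6*, 0.06 for *Socs7* and 0.13 for *Pim3* (adjusted p = 0.619 to 0.988). *Socs6* was low, with means of 3.67 in AML-conditioned and 3.49 in fresh medium, near the 25th percentile of all genes (3.67), where RMA compresses values. SOCS4 and SOCS5 are known from growth factor receptor signalling, SOCS6 and SOCS7 bind other tyrosine kinase pathways, and PIM3 is the third PIM kinase.

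Levels were also compared between the replicate sets within a medium, a split that was noticed in these data, so that its p-values are those of a chosen split. *Socs2* differed most between the sets in DC-conditioned and fresh medium. In DC-conditioned medium replicates 1 to 3 averaged 7.09 and replicates 4 to 7 averaged 8.25, a difference of 1.16 (SE 0.23, adjusted p = 0.00261), and in fresh medium 7.41 and 8.11 (0.70, adjusted p = 0.102). In AML-conditioned medium the set means were 8.80 and 8.60 (-0.20, adjusted p = 0.798). The high fresh arrays, replicates 6 (8.45) and 7 (8.66) overlapped the AML arrays, whereas no fresh or DC array of replicates 1 to 3 reached the lowest AML array. For *Cish*, replicates 4 to 7 differed from 1 to 3 by 0.61 in fresh (adjusted p = 0.411), 0.97 in DC-conditioned (adjusted p = 0.155) and 0.28 in AML-conditioned medium (adjusted p = 0.849). The *Pim2* values were 0.23 in fresh (adjusted p = 0.101), 0.24 in DC-conditioned (adjusted p = 0.0567) and -0.11 in AML-conditioned medium (adjusted p = 0.590). Among the other family genes *Socs4* differed between the sets in fresh medium by 0.57 (SE 0.13, adjusted p = 0.0311). The share of all genes that differed between the sets within a medium is not given here. The values therefore do not show a trait particular to *Socs2* or *Socs4*.

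Within replicates 1 to 3, *Socs2* rose by 1.39 over fresh (adjusted p = 0.00104) and 1.70 over DC-conditioned medium (adjusted p = 0.000362), and *Cish* by 1.94 (adjusted p = 0.000256) and 1.91 (adjusted p = 0.000281). Within replicates 4 to 7 the *Socs2* differences were 0.49 (adjusted p = 0.315) and 0.34 (adjusted p = 0.503), and limma called none of the 6 genes against either medium. *Socs1* differed from fresh medium by 0.47 (adjusted p = 0.0819) and 0.32 (adjusted p = 0.260) within replicates 1 to 3 and 4 to 7. The change of the AML effect from replicates 1 to 3 to replicates 4 to 7 was itself tested over all genes, after the data had been seen. For *Socs2* it was -0.90 against fresh (SE 0.33, limma adjusted p = 0.338) and -1.36 against DC-conditioned medium (SE 0.33, adjusted p = 0.280), and for *Pim2* -0.35 against both (adjusted p = 0.285 and 0.327). None of the 6 genes passed this test, which called 0.00513% of all genes in each comparison. What the replicate sets stand for is not given in the labels, and their part in these results was not tested further.

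**Figure D4:**
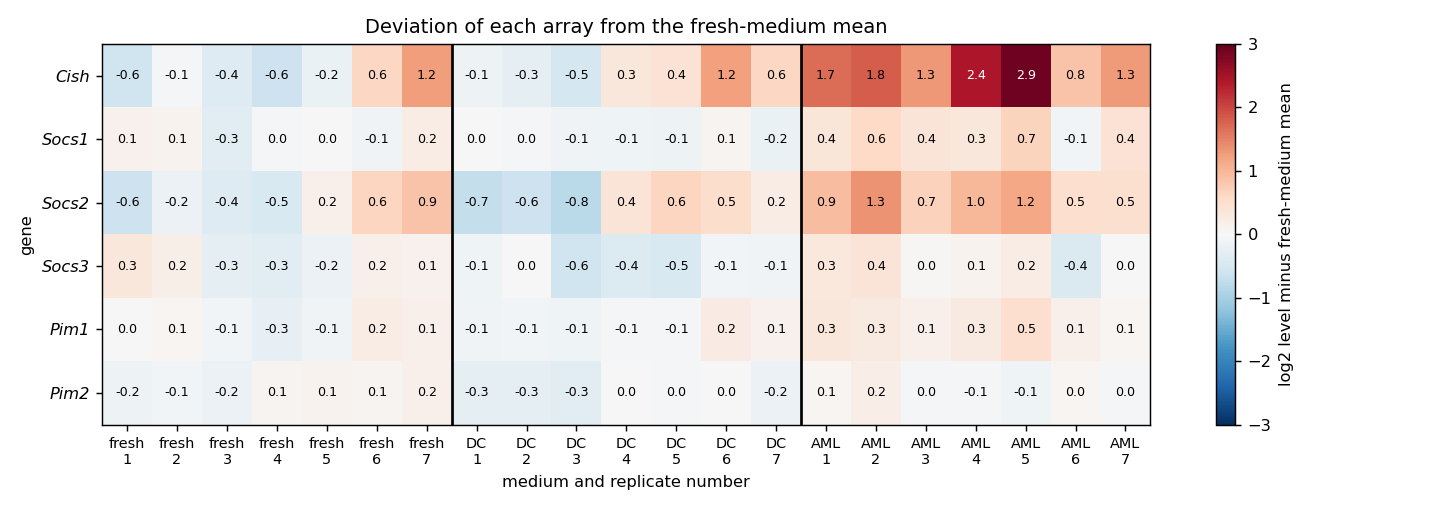
Each cell gives the log2 level of a gene (rows) on an array (columns, by medium and replicate number) minus the gene's fresh-medium mean. *Cish* deviates most on AML replicates 4 and 5, and *Socs2* is below the fresh mean on fresh and DC replicates 1 to 3 and above it on fresh replicates 6 and 7 and DC replicates 4 to 7.

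The genes whose levels were most like each member over the 21 arrays were found by Pearson correlation among 18386 named genes, as a description that shares arrays, media and replicate sets. For *Cish* these were *Tnf* (r = 0.98), *Lta* (0.97) and *Lif* (0.97), a pair of tumour necrosis factor family cytokines and a STAT3-activating cytokine, and with the media's means removed they were the same 3 genes (r = 0.95 to 0.97). *Socs2* was most like *Il2ra* (0.95), the alpha chain of the interleukin-2 receptor, *Clic4* (0.95) and *Cdk6* (0.94). With the means removed its nearest genes were *Ccr4* (0.94), *Wdr74* and *Psat1*. *Pim1* was most like *Myc* (0.95; 0.92 with the means removed), which encodes a growth regulator, and then *Lif* and *Cish*. *Socs1* was most like *Eif4g3* (0.89), *Phf12* and *Ppp1r13b*, and *Jund* (0.82) led with the means removed. *Socs3* followed *Gid8* (0.86) and the ribosomal protein genes *Rpl36* and *Rps10*, with *Hipk2* (0.85) first when the means were removed. *Pim2* was most like *Lipt1* (0.79) over the arrays and *Nup54* (0.88) with the means removed.

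The rest of the pathway was read from lists of ligands, receptors, transducers, partners and targets. Comparisons of AML-conditioned with fresh and with DC-conditioned medium again share the AML arrays. Among 19 ligands that signal through JAK and STAT, 2 rose over fresh medium and 0 fell (median difference 0.05). *Lif* rose by 1.34 (SE 0.30, adjusted p = 0.0158) and *Osm*, which encodes oncostatin M, by 0.99 (SE 0.21, adjusted p = 0.0126), with differences of 1.43 and 0.86 from DC-conditioned medium, called as well, *Osm* in 13 of 21 fits without 1 array (lost without DC replicates 1 to 4 or AML replicates 1, 2, 4 or 5). *Il13* differed from fresh medium by 0.17 (adjusted p = 0.287), and *Il2*, the classical inducer of STAT5 in T cells, by 0.04 (adjusted p = 0.900). Neither rise was called without AML replicates 4 and 5 (*Lif* 1.08, adjusted p = 0.135; *Osm* 0.97, adjusted p = 0.0638), nor were the differences from DC-conditioned medium (1.17 and 0.84). *Il2* had mean levels of 3.07 in AML-conditioned and 3.03 in fresh medium, under the 25th percentile of all genes (3.67). RMA compresses such low values, so the small difference of *Il2* does not show that its RNA was unchanged.

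Of 26 cytokine receptor chains, 2 rose and 1 fell against fresh medium (median 0.02). *Il6ra*, the interleukin-6 receptor chain, rose by 0.79 (SE 0.16, adjusted p = 0.00831), and its rise was called in 21 of 21 fits without 1 array and without AML replicates 4 and 5 (0.80, adjusted p = 0.0474). *Il15ra*, which presents interleukin-15 to STAT5-activating receptors, rose by 0.33 (adjusted p = 0.0273). *Ifngr1*, the ligand-binding chain of the interferon gamma receptor, fell by 0.60 in log2 units (adjusted p = 0.0351). The call of *Il15ra* ended without any 1 of fresh replicates 1, 2, 3 or 6 or AML replicates 2, 4 or 5, and that of *Ifngr1* without any 1 of fresh replicates 1 to 4 or AML replicates 4 or 5. With AML replicates 4 and 5 both left out they were 0.27 and -0.36 and not called. *Il7r* was called only against DC-conditioned medium, where it rose by 0.29 (adjusted p = 0.0177), beside 0.23 from fresh medium (adjusted p = 0.0550). Without AML replicates 4 and 5 its difference from DC-conditioned medium was 0.31 and not called (adjusted p = 0.0527).

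Of 9 JAK kinases and STAT factors 1 rose: *Stat2*, a factor of type I interferon signalling, by 0.34 over fresh (SE 0.08, adjusted p = 0.0146) and 0.31 over DC-conditioned medium (adjusted p = 0.0247), the latter lost without DC replicate 7 or any 1 of AML replicates 1 to 3. *Stat5a* (0.08, adjusted p = 0.715) and *Stat5b* (-0.03, adjusted p = 0.853) did not pass, nor did *Stat3* (-0.13, adjusted p = 0.452) or *Stat4* (-0.16, adjusted p = 0.467). These are levels of RNA, and STAT phosphorylation was not measured. Of 6 partners of the SOCS box in the ubiquitin ligase, *Rnf7*, a RING subunit that works with CUL5, had a log2 fall of -0.38 (SE 0.07, adjusted p = 0.00559) and the other 5 did not pass, among them *Cul5* (0.13, adjusted p = 0.604) and *Cul2* (-0.14, adjusted p = 0.636), the scaffold genes. The calls of *Stat2* and *Rnf7* against fresh medium held without any 1 array and without AML replicates 4 and 5 (0.40 and -0.33, adjusted p = 0.0202 and 0.0493). Among 14 other inhibitors of the pathway 1 rose, the phosphatase gene *Ptpn1*, by 0.34 (adjusted p = 0.0463), a call that held in 6 of 21 fits without 1 array and ended (0.27 to 0.35) when any 1 was left out of AML replicates 2, 4, 5 and 7, of fresh replicates 1 to 6 or of the DC arrays other than replicates 3 and 6. *Cbl* (0.15, adjusted p = 0.186) and *Usp18* (0.31, adjusted p = 0.251) did not pass.

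Of 17 other known STAT5 targets 3 rose and 1 fell over fresh medium, with a median of 0.17 beside -0.01 over all genes, and 13 did not pass. Besides *Osm*, *Lta*, which encodes lymphotoxin alpha, rose by 1.24 (SE 0.27, adjusted p = 0.0146) and *Bcl2l1*, which encodes the survival protein BCL-XL, by 0.62 (SE 0.15, adjusted p = 0.0264). *Prdm1*, the gene of the effector regulator BLIMP1, fell by 1.27 (SE 0.32, adjusted p = 0.0322). *Myc* (0.40, adjusted p = 0.0573), *Bcl2* (0.53, adjusted p = 0.124), *Cdk6* (0.62, adjusted p = 0.144) and *Il2ra* (0.53, adjusted p = 0.0725) did not pass. These had the largest rises among the 13 that did not pass, and 10 of the 17 were higher, called or not. Of those that were lower and did not pass, *Nfil3* (-0.25, adjusted p = 0.593) and *Id2* (-0.22, adjusted p = 0.359) fell most. In either direction 8 of the 17 had an unadjusted p under 0.05 against fresh medium, beside 3100 of all 19505 genes. Against DC-conditioned medium 13 of the 17 did, beside 2782 of all genes. Without AML replicates 4 and 5 none of the 17 was called against fresh medium, and 1 was called higher against DC-conditioned medium. That 1 was not among *Osm*, *Lta* and *Prdm1*, which were called against DC-conditioned medium in the reported fit and lost those calls. The median difference from fresh medium then was 0.11, with *Lta* at 0.83, *Bcl2l1* at 0.44 and *Prdm1* at -0.72. The calls of *Bcl2l1* and *Prdm1* also ended without 1 array in 5 and 8 of 21 fits, *Bcl2l1* when fresh replicate 1, 4 or 5 or 1 of AML replicates 4 and 5 was left out, and *Prdm1* when 1 of fresh replicates 2 and 4 to 7 or of AML replicates 3 to 5 was.

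Lists of other STAT factors were read beside these. Of 4 genes that interleukin-2 and STAT5 lower, 0 passed against fresh medium and 1, *Il7r*, was higher than in DC-conditioned medium, a call that ended without AML replicates 4 and 5 as given above. *S1pr1* differed from fresh medium by -0.29 (adjusted p = 0.50) and *Klf2* by -0.17 (adjusted p = 0.528). Of 7 STAT6 targets 2 rose, the chemokine receptor gene *Ccr8* by 2.16 (SE 0.33, adjusted p = 0.00104) and the cytokine gene *Il24* by 1.59 (SE 0.31, adjusted p = 0.00614), with a list median of 0.05, and *Arg1* differed by -0.16 (adjusted p = 0.458). Without AML replicates 4 and 5 *Ccr8* was called at 1.77 (adjusted p = 0.00962), and *Il24* was not, at 1.19 (adjusted p = 0.0553). Of 10 interferon gamma targets 1 rose, *Irgm1* by 0.26 (adjusted p = 0.0397), a call that ended without any 1 of fresh replicates 1 to 5 or AML replicates 2 to 5 (0.23 to 0.27), while *Igtp* (0.19, adjusted p = 0.103) and *Gbp3* (-0.16, adjusted p = 0.210) did not pass. Of 9 STAT3 targets and 12 substrates and partners of PIM kinases limma called 0 against fresh medium, with medians of 0.06 and -0.05, and 1 and 5 of them had an unadjusted p under 0.05. Among all 19505 genes 3100 had such a p against fresh medium. The STAT3 targets with the smallest adjusted p were *Batf* (-0.21, 0.123), *Il23r* (-0.16, 0.336) and *Bcl3* (0.18, 0.396). *Il23r* (means 3.21 in AML-conditioned and 3.37 in fresh medium) and *Arg1* (3.25 and 3.42) lay under the 25th percentile of all genes (3.67), where RMA compresses values. Among the PIM substrates and partners *Myc* had the smallest adjusted p, with a difference of 0.40 (adjusted p = 0.0573), *Cdkn1b*, a cell cycle inhibitor, differed by -0.30 (adjusted p = 0.111) and *Cdc25c*, a cell cycle phosphatase, by -0.35 (adjusted p = 0.269). No gene of any of these lists was called between DC-conditioned and fresh medium.

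**Figure D5:**
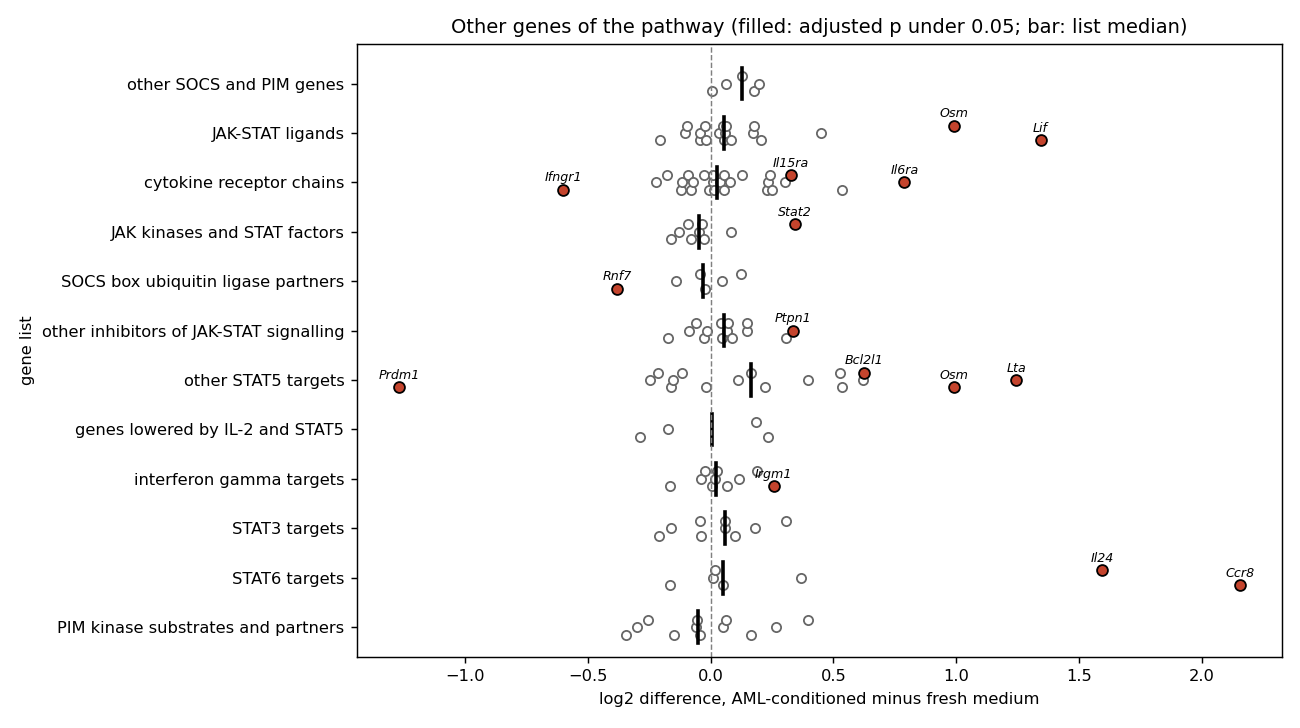
Points show the log2 difference between AML-conditioned and fresh medium (horizontal axis) for each measured gene of 12 pathway lists (rows), filled and named where the adjusted p was under 0.05, with a bar at the list median. Medians lie between -0.05 and 0.17, and the filled points are single genes such as *Ccr8* (2.16), *Lif* (1.34) and *Prdm1* (-1.27).

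Markers of other cell types were read beside the changes of *Cish*, *Socs1* and *Socs2*. Of 3 CD4 T cell markers 1 was called higher over fresh medium, *Cd4* by 0.79 (SE 0.18, limma adjusted p = 0.0150). *Cd40lg* (0.31, adjusted p = 0.288) and *Zbtb7b* (0.17, adjusted p = 0.304) were higher too and did not pass. All 3 had an unadjusted p under 0.05 against fresh and against DC-conditioned medium. The log2 of the summed level of these 3 markers ran from 7.95 to 8.65 in fresh medium. It ran from 8.23 to 8.98 in DC-conditioned and from 8.43 to 9.35 in AML-conditioned medium. This sum mostly follows *Cd4*, at a mean of 7.77 in fresh medium beside 6.29 for *Zbtb7b* and 4.90 for *Cd40lg*. Of 9 myeloid and dendritic cell markers 1 was lower, *H2-Ab1*, an MHC class II gene, by -1.33 (SE 0.30, adjusted p = 0.0168), with summed levels of 8.49 to 9.14, 8.66 to 9.26 and 7.52 to 8.71. *H2-Ab1* had a mean of 8.29 in fresh medium and the other markers of this list 5.34 or lower. The sum therefore mostly repeats *H2-Ab1*, and the other 8 did not pass. None of 4 measured regulatory T cell markers passed against fresh medium, with summed levels of 11.33 to 11.68, 11.46 to 11.67 and 11.19 to 11.67. *Il2ra* (0.53), *Ikzf4* (0.44) and *Ikzf2* (0.09) were higher and *Ctla4* (-0.20), the marker with the highest level, was lower. The sum therefore hides opposite signs, and *Foxp3* was not among the measured genes. Against DC-conditioned medium 1, *Ikzf4*, was higher by 0.55 (adjusted p = 0.0219), a call lost without AML replicate 4 or 5. None of these marker calls held without AML replicates 4 and 5, where *Cd4* differed from fresh medium by 0.81 (adjusted p = 0.0622), *H2-Ab1* by -0.82 (adjusted p = 0.0985), and *Ikzf4* from DC-conditioned medium by 0.34 (adjusted p = 0.156). None of 5 B cell markers and 3 NK cell markers passed in any comparison. RMA values have no zero that marks a gene as absent, and the part of other cells in the results was not tested.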

How the data were processed

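RNA of 21 samples was labelled with the WT Pico kit and read on 1-colour Affymetrix arrays, per the labels' protocols. The authors deposited RMA values, on a log2 scale, for each transcript cluster (package oligo, per the submitters' processing notes, versions not given). In RMA the background is corrected, arrays are quantile normalized and probes are summarised, which compresses low values. Of 22203 transcript clusters 19572 had 1 gene symbol, 0 several and 2631 none. For the 55 symbols with more than 1 cluster the one with the highest mean was kept, which left 19505 genes. All 19572 were matched by gene identifier to a table of GRCm38.p6, and 0 symbols changed.

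All 3 comparisons came from 1 limma 3.58.1 fit (lmFit and eBayes, R 4.3.3) over the 21 arrays, 2-sided, without covariates or level filter, and p-values were adjusted by Benjamini-Hochberg over all genes, with calls at 0.05. The fit was tested on simulated data. The number of arrays limits the precision. Members and gene lists were chosen with earlier results of these data known. The text names the members and the related SOCS and PIM genes. Of each pathway list it names the 3 genes with the smallest adjusted p against fresh medium and those called in any comparison. Of the marker lists it names the called or defining genes and the measured CD4 and regulatory T cell markers, and for likeness the 3 genes with the highest r. A few known genes (*Il2*, *Stat5a*, *Stat5b*, *Bcl2*) were added after their values were seen. Among the STAT5 targets *Myc*, *Il2ra*, *Cdk6*, *Nfil3* and *Id2* were also named outside this rule. The 35 alternatives were the replicate number as a block or random effect, a block for the 2 replicate sets, each set alone, 2 groups alone, quantile normalization, median centring, a filter at the 25th percentile, the mean of transcript clusters, trend with robust estimation, array weights, an unmoderated test, and leaving out each array or AML replicates 4 and 5.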

Additional observations from a re-analysis of the deposited data

Results flagged for a closer look

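In fresh medium the highest array for *Socs5* had a log2 level of 5.18, and the next highest was at 4.68. The gap between them was 0.62 of the range of the 7 fresh arrays, more than a test for 1 outlying value allows at the 95% level. Of 33 sets of 7 arrays examined, the 3 media for 11 family genes, this was the 1 that stood out, and chance gives about 1 in 20.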

How the results depend on the processing

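Residuals of samples with the same replicate number correlated at -0.11 to 0.21 between AML-conditioned and fresh medium (over 0.1 in 3 of 7 pairs). Between DC-conditioned and fresh medium it was 0.04 to 0.36 (over 0.1 in 6 of 7). Between AML- and DC-conditioned medium it was 0.07 to 0.27 (over 0.1 in 4 of 7). In these comparisons, in this order, 4, 2 and 4 of 7 correlated best with their own number. Whether the replicate numbers pair the samples was not tested, and the reported fit did not use them. With the replicate number as a block *Cish* (adjusted p = 0.00278 against fresh medium) and *Socs1* (0.0222) stayed called, *Socs2* became called against fresh medium at 0.88 (adjusted p = 0.0276), and no other member's call changed.

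*Cish* against fresh medium lost its call in replicates 4 to 7 alone (1.61). *Socs1* lost it in replicates 1 to 3 alone (0.47), replicates 4 to 7 alone (0.32), the 2 groups alone (0.39, adjusted p = 0.0747) and without AML replicates 4 and 5 (0.34), and ranged from 0.33 to 0.46 without 1 array. *Socs2* against fresh medium gained a call with the block (0.88), the random effect (0.88, adjusted p = 0.0335), the set block (0.88, adjusted p = 0.0157), the level filter (0.88, adjusted p = 0.0469), the 2 groups alone (0.88, adjusted p = 0.0442), quantile normalization (0.88, adjusted p = 0.0415) and replicates 1 to 3 alone (1.39), and ranged from 0.77 to 1.02 without 1 array. Against DC-conditioned medium *Socs2* lost its call with median centring, trend and robust estimation, array weights (0.79), the 2 groups alone and the unmoderated test (adjusted p = 0.0506 to 0.104). The same call was lost without AML replicates 4 and 5 (0.84, adjusted p = 0.235) and in replicates 4 to 7 alone (0.34, adjusted p = 0.503). Members called were 0 against fresh and 0 against DC-conditioned medium in replicates 4 to 7 alone, 1 and 0 without AML replicates 4 and 5, and 1 to 3 and 2 to 4 without 1 array. The level filter adjusts over fewer genes. For the other settings the cause was not tested.

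Signs turned only for differences that were not called. In replicates 4 to 7 alone AML minus fresh was -0.14 for *Pim2*, -0.0055 for *Socs4* and -0.015 for *Socs7*, DC minus fresh 0.15 for *Socs2*, 0.052 for *Pim1* and 0.025 for *Socs7*, and AML minus DC -0.060 for *Socs4*, 0.067 for *Socs5* and -0.040 for *Socs7*. In replicates 1 to 3 alone AML minus fresh was -0.16 for *Socs5*. Without AML replicates 4 and 5 AML minus fresh was -0.046 for *Socs5*, -0.044 for *Socs7* and -0.018 for *Pim3*, and AML minus DC -0.058 for *Socs4* and -0.071 for *Pim3*. Array weights gave -0.0066 for *Socs5* (AML minus fresh), 0.0029 for *Socs7* (DC minus fresh), and -0.032 for *Socs4* and -0.018 for *Pim3* (AML minus DC), and median centring 0.019 for *Pim1* (DC minus fresh). With 1 array left out AML minus fresh ran from -0.023 to 0.032 for *Pim2* and -0.044 to 0.10 for *Socs5*. DC minus fresh ran from -0.17 to 0.092 for *Socs2*, -0.056 to 0.024 for *Pim1*, -0.082 to 0.0066 for *Socs7* and -0.0042 to 0.12 for *Pim3*, and AML minus DC from -0.037 to 0.085 for *Socs4*, -0.10 to 0.0070 for *Socs5* and -0.028 to 0.13 for *Pim3*.

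Over all genes 541 were called against fresh medium, 1012 with the replicate block, 1026 with the set block, 246 with the 2 groups alone, 32 in replicates 4 to 7 alone, 111 without AML replicates 4 and 5, and 299 and 341 without fresh replicate 2 or 4, and 249 and 218 without AML replicate 4 or 5. Against DC-conditioned medium 466 were called, 784, 797, 249, 43 and 92 under the first 5 of these, and 308, 289, 220, 242 and 784 without DC replicate 4 or 7 or AML replicate 4, 5 or 6. Between DC-conditioned and fresh medium it was 0 to 2. The signal over background of single arrays was not assessed.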
